A study of Rattus norvegicus with 6 samples.

Results

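The genes described here are 8 listed as regulators of multiciliogenesis, the building of many motile cilia in a cell. These regulators are Mcidas, Ccno, Myb, Foxj1, Rfx1, Rfx2, Rfx3 and Rfx4. They were chosen by rat gene symbol, and each symbol matched 1 of the 38445 NCBI genes counted in the series. Of the 8 genes, 6 passed the filter on low counts and were tested with the 18141 genes that passed it, while Mcidas and Ccno did not. RNA-seq was performed on the amygdala of adult male Sprague Dawley/WT rats that had received an intraperitoneal injection of saline (control) or of ethanol at 1 g/kg, with tissue taken 1 h later in each group. Each library pooled RNA from 2 rats, so that 6 rats per group gave 3 libraries, and p-values below measure the spread between these pools. The libraries hold whole dissected tissue, in which fewer cells of a type and less RNA per cell cannot be told apart.

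Multiciliated cells, which in brain line the ventricles as ependyma and cover the choroid plexus, carry bundles of cilia. Those of the ependyma move cerebrospinal fluid. As multiciliated cells differentiate, multicilin (Mcidas), which binds E2F factors, and the cyclin O protein (Ccno) act early in the amplification of centrioles. The factor c-Myb (Myb) acts early in the same program. FOXJ1 is the forkhead factor that turns on genes of the motile axoneme. The RFX factors bind a DNA motif called the X-box in promoters of ciliary genes, and several are also expressed in cells with a single non-motile cilium, including neurons and glia.

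Libraries held between 62576504 and 70755739 reads assigned to genes. Levels are given as CPM, counts relative to the total of the library, after TMM scaling between libraries. With these totals 3 counts, taken as the detection floor, correspond to 0.0424 to 0.0479 CPM, a floor for counting error only. The neuronal genes of the amygdala were well expressed, with Slc17a7 at 579 ± 180 CPM and Gad1 at 407 ± 52.0 CPM (SD, n = 3 each) in the saline group. The libraries differed widely in markers of choroid plexus epithelium. The summed level of 12 such markers ran from 561 to 1189 CPM in the control libraries, while it was 33.3, 56.8 and 527 CPM in ethanol replicates 1, 2 and 3. Of these markers 11 were tested, and each of the 11 had a negative log2 fold change, 5 of them with an unadjusted p below 0.05. Over all 18141 genes tested, 8602 had a negative log2 fold change and 2.58% were lower at that limit. Otx2, a transcription factor of that epithelium, had at most 1 count in any library.

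Mcidas and Ccno were barely detected. Mcidas (NCBI gene 688802) occupies bases 44863246 to 44869732 of chromosome 2 in the Rnor_6.0 build, just beyond Ccno (NCBI gene 499528, chromosome 2 from 44857043 to 44860317) on the same strand. Mcidas had 2, 0 and 3 counts in control replicates 1 to 3 and 0, 3 and 1 counts with ethanol. Every library was therefore at or under the floor of 3 counts, and no fold change is given. Ccno had 2, 6 and 5 counts in the controls and 1, 6 and 4 after ethanol. Its sums of 13 and 11 counts did not allow a difference between the groups to be detected.

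Myb stood much higher and was the regulator with the clearest separation of the groups. The gene (NCBI gene 498982) spans 16658178 to 16690135 on the minus strand of chromosome 1 in 17 exonic blocks. The control libraries gave 181, 255 and 240 counts for Myb, and ethanol replicates 1, 2 and 3 gave 139, 159 and 114. In scaled units these were 2.77, 3.59 and 3.79 CPM against 2.17, 2.47 and 1.64 CPM. All 3 ethanol libraries lay below all 3 controls, with ethanol replicate 3 the lowest. Mean levels were 3.38 ± 0.54 CPM with saline and 2.09 ± 0.422 CPM with ethanol (SD, n = 3 each). This gave a log2 fold change of -0.69 (standard error 0.19), and edgeR's quasi-likelihood test returned an unadjusted p of 0.00744 and an adjusted p of 1.0 over all genes. A 2-sided exact permutation test gave p = 0.1, the smallest that 3 libraries against 3 allow. Counting error for Myb was 6.26% to 9.37% per library, less than the spread of 16.0% in controls and 20.2% after ethanol.

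Foxj1 (NCBI gene 116557), on the minus strand of chromosome 10 from 105282090 to 105289396, is the factor that directs the motile axoneme genes. It was at 11.9, 17.1 and 15.5 CPM in the control libraries and at 8.70, 9.16 and 13.9 CPM after ethanol. Ethanol replicates 1 and 2 lay below every control, but replicate 3 exceeded control replicate 1, so the groups overlapped. Its log2 fold change was -0.48 (standard error 0.20), with an unadjusted p of 0.0468 and an adjusted p of 1.0 from edgeR's quasi-likelihood test. The exact permutation test gave p = 0.2. When ethanol replicate 3 was left out the value was -0.73 (adjusted p = 0.286, edgeR), and when ethanol replicate 1 was left out it was -0.36.

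**Figure D1:**
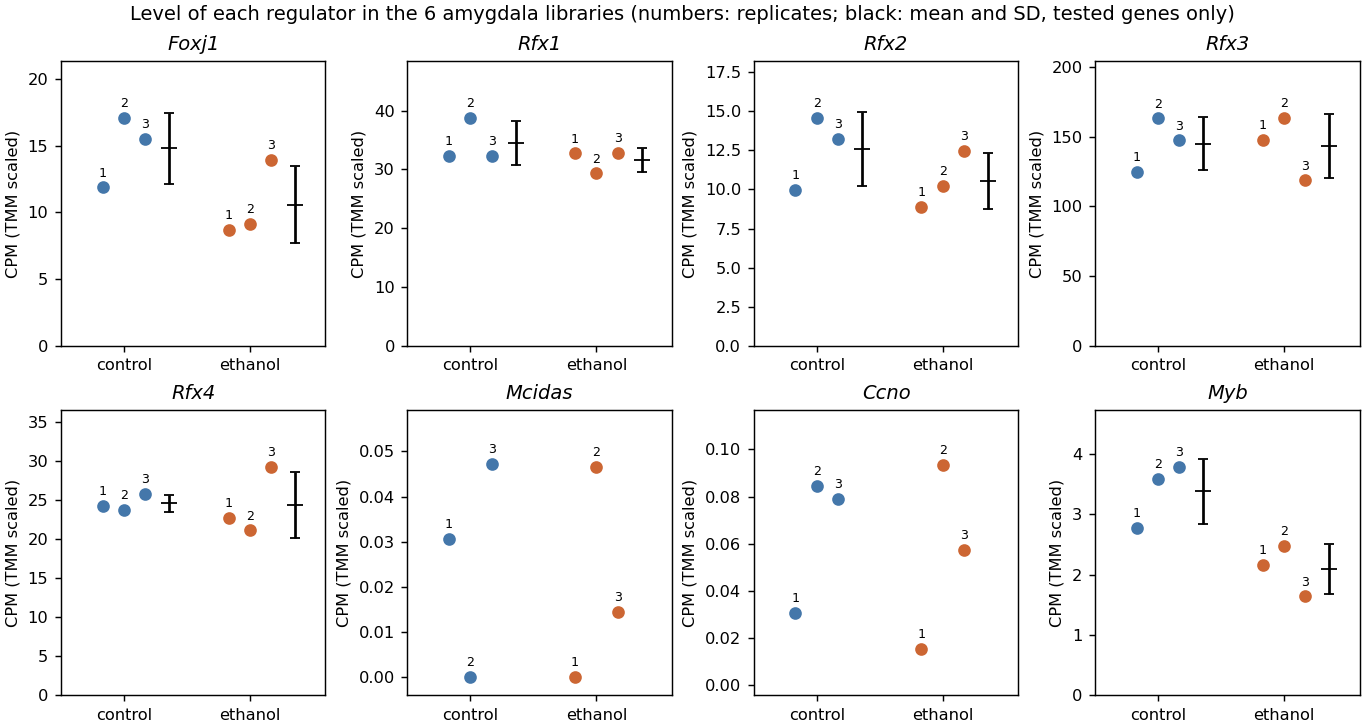
Scaled level (CPM, linear axis) of each of the 8 regulators in the 3 control and 3 ethanol libraries, numbered by replicate, with the mean and SD drawn for the tested genes. The ethanol libraries sat below all controls for Myb (1.64 to 2.47 against 2.77 to 3.79 CPM), while for Foxj1 ethanol replicate 3 reached 13.9 CPM, within the control range.

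The RFX factors followed no single pattern. Rfx3 (NCBI gene 361746, minus strand of chromosome 1 from 245853332 to 246110648) acts in the formation of both motile and primary cilia. It was at 125, 163 and 147 CPM in the controls and 148, 163 and 119 CPM after ethanol. The groups overlapped almost fully, with a log2 fold change of -0.02 (standard error 0.14). Rfx2 (NCBI gene 301121, chromosome 9 from 10216194 to 10283467) works with FOXJ1 at genes of multiciliated cells. It was at 9.96, 14.6 and 13.2 CPM in the controls and 8.88, 10.2 and 12.4 CPM after ethanol. Its libraries followed an order like that of Foxj1, with ethanol replicate 3 the highest of its group and control replicate 1 the lowest, and the groups overlapped. The log2 fold change of Rfx2 was -0.26 (standard error 0.17), with an unadjusted p of 0.17 from edgeR's quasi-likelihood test. It ran from -0.41 when control replicate 1 was left out (unadjusted p 0.0346) to -0.14 when control replicate 2 was left out.

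Rfx1 and Rfx4 also overlapped between the groups. Rfx1 (NCBI gene 288906, chromosome 19 from 25181564 to 25212410), a widely expressed member of the family, was at 32.3, 38.7 and 32.2 CPM in controls and 32.7, 29.3 and 32.9 CPM after ethanol. Ethanol replicate 2 was the lowest library, the groups overlapped, and the log2 fold change was -0.12 (standard error 0.09). It was -0.028 when control replicate 2, the highest library, was left out. Rfx4 (NCBI gene 500818, chromosome 7 from 25831358 to 25909976) is needed for patterning of the embryonic brain and is expressed in glia. It was at 24.2, 23.7 and 25.8 CPM in controls and 22.7, 21.1 and 29.2 CPM after ethanol, and ethanol replicate 3 lay above every other library. Its log2 fold change was -0.01 (standard error 0.12). That library also had the highest summed level of 8 astrocyte markers, 5998 CPM against 4459 to 5245 CPM in the other libraries, and the part of this in the Rfx4 value was not tested. Exact permutation tests gave p = 0.6 for Rfx1, 0.3 for Rfx2, 1.0 for Rfx3 and 0.9 for Rfx4. The exons of the 8 regulators share no bases with another gene on either strand.

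Levels of different genes were compared per kb of exon, since the summed exon length runs from 1.56 kb for Mcidas to 14.3 kb for Rfx3. Over the 6 libraries Rfx3 had the highest mean, 10.1 ± 1.32 CPM per kb (SD, n = 6), followed by Rfx1 at 7.30 ± 0.682 and Foxj1 at 6.54 ± 1.75. Rfx4 at 4.68 ± 0.536 and Rfx2 at 3.41 ± 0.646 CPM per kb came next. Each of these 5 genes had a range over libraries that overlapped that of its neighbor in the order. Myb stood apart at 0.472 ± 0.143 CPM per kb, its highest library being below the lowest of Rfx2. Ccno and Mcidas came last, with 0.0229 and 0.0148 CPM per kb on average, and their ranges overlapped. Among the middle genes only the order of Foxj1 and Rfx4 turned around without the correction for length, where Foxj1 had 12.7 CPM and Rfx4 24.4 CPM.

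**Figure D2:**
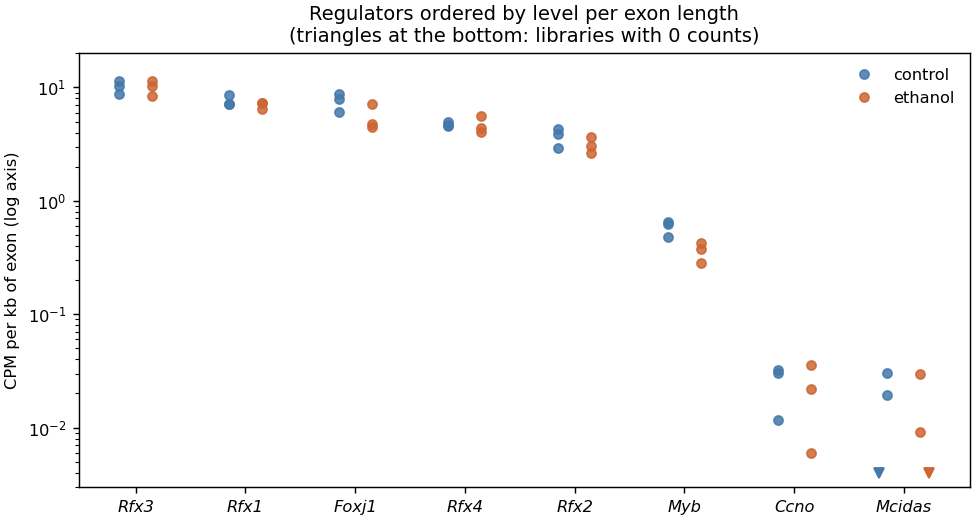
Level per kb of exon (CPM per kb, log axis) of the 8 regulators in each library, in order of their mean, with triangles at the bottom marking libraries with 0 counts. The 5 genes from Rfx3 (10.1) to Rfx2 (3.41) form a run of overlapping ranges, and Myb (0.472), Ccno (0.0229) and Mcidas (0.0148) lie below it.

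The regulators were also compared by their promoters, because the X-box bound by RFX proteins is a known feature of ciliary genes. RefSeq promoter windows on the GRCr8 build, 250 bases before to 50 bases after a gene's start, were given for 6 of the 8 genes; Foxj1 and Myb were not among them. The half-site GTTGCC was searched on either strand. It was chosen with the sequences in view, so its share in the windows of the regulators may partly follow from that choice. It was present in 5 of 6 windows, against 3343 of 27457 windows (12.2%) over all genes. The stretches below show it in its context, taken from the bases before the start and read 5′ to 3′ on the strand of the gene, with the half-site in capitals.
Rfx1: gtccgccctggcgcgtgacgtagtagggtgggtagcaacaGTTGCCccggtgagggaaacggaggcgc
Rfx2: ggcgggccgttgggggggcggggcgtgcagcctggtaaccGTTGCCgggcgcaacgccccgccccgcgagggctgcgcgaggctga
Rfx3: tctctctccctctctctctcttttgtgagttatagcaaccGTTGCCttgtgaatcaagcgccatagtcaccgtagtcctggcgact
Mcidas: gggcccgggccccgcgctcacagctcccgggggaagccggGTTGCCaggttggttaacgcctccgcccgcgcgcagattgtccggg
Ccno: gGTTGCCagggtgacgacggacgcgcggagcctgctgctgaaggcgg

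These stretches lie in GRCr8 at chr19:40996810-40996877 on the minus strand for Rfx1, chr9:1758242-1758327 on the minus strand for Rfx2 and chr1:235122495-235122580 on the minus strand for Rfx3. Those of Mcidas and Ccno lie on the plus strand, at chr2:46369848-46369933 and chr2:46363824-46363870. Counted from the start of the gene, the half-site began at base -28 in Rfx1, -118 in Rfx3, -129 in Mcidas, -141 in Rfx2 and -249 in Ccno. The window of Rfx4 held none. A fuller form of the motif, in which GTNNCC is followed after 0 to 3 bases by GGNNAC, was present in Ccno at the same place and in Rfx2 after its start, so in 2 of 6 windows against 3.82% of all windows. A forkhead core, TGTTTA on either strand, was found in 0 of the 6 windows and in 13.7% of all windows.

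The half-site was also frequent in promoters of ciliary genes. It was present in 22 of 54 windows of motile axoneme genes (40.7%) and in 10 of 22 windows of genes for intraflagellar transport and the BBSome (45.5%), the machinery that carries cargo along cilia. Of 13 windows of other multiciliogenesis genes 4 held it (30.8%). Windows were given for 6 of the 8 paralogs of the regulators (Rfx5 to Rfx8, Foxj2, Foxj3, Mybl1 and Mybl2), and none of these 6 held it. None of 8 windows of amygdala neuron markers did either. At the 12.2% share of all windows, lists this small may hold none, so no contrast is drawn from these 2 counts. These matches describe letters in a window and were not tested as binding sites.

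**Figure D3:**
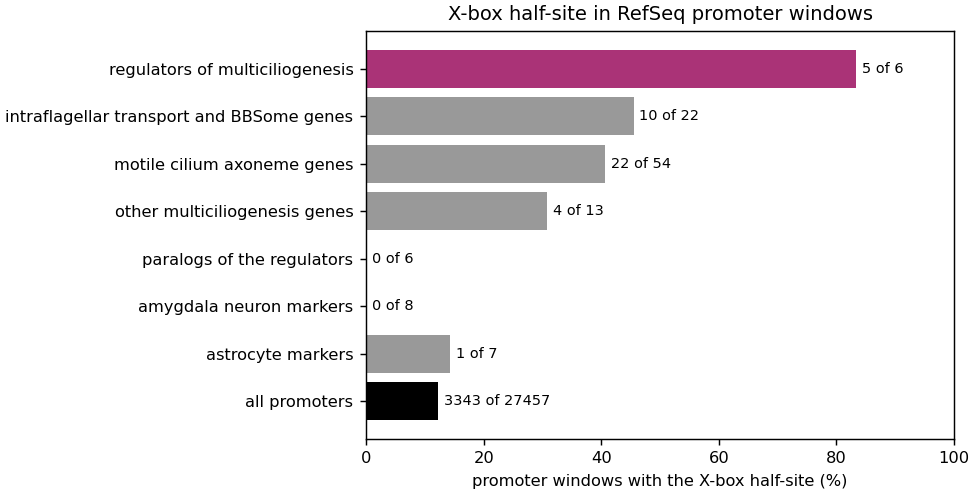
Share of RefSeq promoter windows (percent, GRCr8) that hold the X-box half-site on either strand, by gene list, with the number of windows beside each bar. The regulators (5 of 6) and both lists of ciliary genes lie above the 12.2% of all windows. The half-site was chosen with the sequences in view.

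The comparison of ethanol with control gave no call at the threshold of 0.2 on the adjusted p that the study used, either for the regulators (0 of 6 tested) or for all genes (0% of 18141, with edgeR's quasi-likelihood test). The same count was 74 genes with DESeq2, 77 with edgeR's likelihood ratio test and 0 with limma-voom, and none of these tools called a regulator. The paper did report genes past this threshold from its own RNA-seq analysis, and why the counts differ was not tested. An unadjusted p below 0.05 was reached by 753 genes (4.15% of those tested), of which 468 (2.58% of those tested) were lower with ethanol. Among the regulators, Myb and Foxj1 were below this limit, both lower after ethanol. Groups that did not overlap were seen in 8.85% of all genes tested, and in 5.19% with the ethanol libraries lower, to which Myb belonged. All 6 regulators tested had a negative log2 fold change, as did 8602 of all 18141 genes tested. The median was -0.19 for the regulators against 0.01 for all genes. These 6 genes were measured in the same 6 libraries, so their signs are not independent. For Rfx3 and Rfx4 the negative sign rests on small values that turned positive when 1 of several libraries was left out.

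The 7 paralogs of the regulators that were tested had log2 fold changes from -0.63 to 0.01, and 6 were negative. Only Rfx8 had an unadjusted p below 0.05 (edgeR's quasi-likelihood test), beside 4.15% of all genes tested. It was at 1.85 ± 0.409 CPM with saline and 1.20 ± 0.111 CPM with ethanol (SD, n = 3 each), a difference of -0.63 on the log2 scale. For Rfx8 and Foxj2 all ethanol libraries lay below all controls, as for 5.19% of all genes tested. Foxj3, Rfx5 and Foxj2 were the most abundant paralogs, at 121, 62.0 and 60.5 CPM in controls, and changed by 0.01, -0.01 and -0.05 on the log2 scale. Mybl2, at 1.04 CPM in controls, had a log2 fold change of -0.30. Rfx6 was not tested. The median over the paralogs was -0.05.

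Of 16 other multiciliogenesis genes, 14 were tested and 2 had an unadjusted p below 0.05, both lower after ethanol, beside 2.58% of all genes tested. Ccdc78, a centriole amplification protein, averaged 2.94 ± 0.0298 CPM with saline and 1.87 ± 0.229 CPM with ethanol (SD, n = 3 each). The resulting log2 value of -0.65 (standard error 0.14) had the smallest p of the list, with an adjusted p of 0.818 from edgeR's quasi-likelihood test. Tp73, whose product p73 is a transcription factor needed for multiciliated cells, averaged 2.69 ± 0.686 and 1.57 ± 0.37 CPM (SD, n = 3 each), and its difference was -0.77 (standard error 0.24) on the log2 scale. Cep152, a scaffold for centriole duplication, came next at -0.22. For these 3 genes all ethanol libraries lay below all controls, as for 5.19% of all genes tested. The relatives and partners of multicilin showed smaller differences. Gmnc, which acts upstream of Mcidas, and the E2F partners E2f4, E2f5 and Tfdp1 had log2 fold changes of -0.08, -0.04, -0.11 and -0.03. Ccp110, a centriole cap protein and the most abundant gene of the list at 91.0 CPM in controls, was at -0.11. Of the 14 genes, 11 had a negative and 3 a positive log2 fold change, the positive ones being Plk4, Sass6 and Stil at 0.03, 0.10 and 0.06, each less than its standard error. The median over the list was -0.07. Foxn4 was not tested and Cdc20b was not matched to the files.

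**Figure D4:**
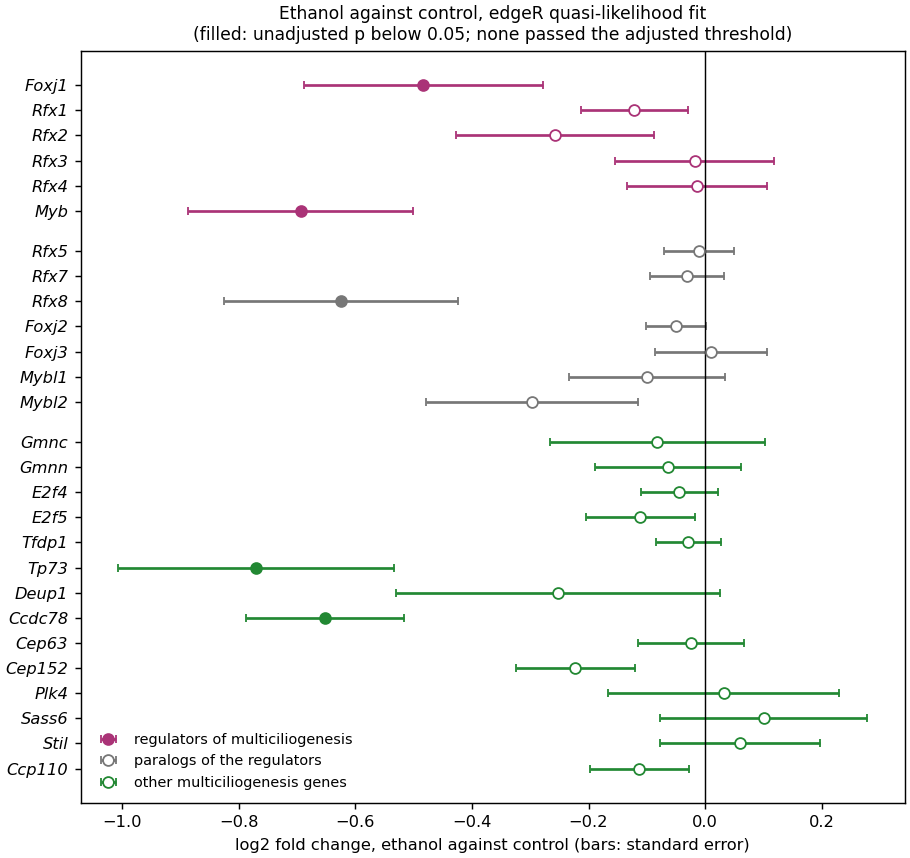
Log2 fold change of ethanol against control with its standard error for the 6 tested regulators, 7 paralogs and 14 other multiciliogenesis genes, with filled points at an unadjusted p below 0.05. Myb (-0.69) and Foxj1 (-0.48) are filled among the regulators, Rfx8 (-0.63) among the paralogs, and Tp73 (-0.77) and Ccdc78 (-0.65) among the others.

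Genes of the motile axoneme, many of which FOXJ1 and RFX factors are known to regulate, were measured in the same fit. Of 64 tested, 59 had a negative log2 fold change, 32 had an unadjusted p below 0.05 and each of these 32 was lower after ethanol. Over all genes tested, 2.58% were lower at this limit. The median of the axoneme list was -0.36. The groups did not overlap for 28 of the 64, with the ethanol libraries lower each time, beside 5.19% of all genes tested. The list was chosen with earlier results of these data known. The adjusted p passed 0.2 for none of the 64 genes with edgeR's quasi-likelihood test. Dnah1, an inner arm dynein heavy chain, averaged 5.42 ± 1.03 CPM with saline and 2.81 ± 0.336 CPM with ethanol (SD, n = 3 each), a difference of -0.95 on the log2 scale. Cfap65 and Cfap126, proteins of motile cilia, had -0.72 and -0.97. Dnah1, Cfap65 and Cfap126 were named for the smallest p of the list, so their large differences follow from that choice. The most abundant genes of the list were Drc1, Dnah9 and Tppp3. Drc1, of the nexin-dynein regulatory complex, was at 59.4 ± 6.17 and 50.4 ± 5.47 CPM (SD, n = 3 each), a log2 fold change of -0.24. Dnah9, an outer arm dynein heavy chain, was at 55.0 ± 12.9 and 42.4 ± 2.66 CPM (SD, n = 3 each), a log2 fold change of -0.38. Both were among the 32 genes below the limit, while Tppp3 had a log2 fold change of 0.05.

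Genes for intraflagellar transport and the BBSome, which primary cilia also use, had a median of -0.04. Of 26 tested, 1 had an unadjusted p below 0.05, beside 4.15% of all genes tested. The gene was Ift140, a subunit of the complex for retrograde transport, with a log2 fold change of -0.20. Dync2h1, the retrograde motor, and Ift81 followed at -0.13 and -0.10. The kinesin genes Kifap3, Kif3a and Kif3b, the most abundant of the list, were at 334 ± 7.49, 240 ± 20.4 and 89.0 ± 4.29 CPM (SD, n = 3 each) in controls, with log2 fold changes of 0.11, 0.00 and 0.09.

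The ethanol libraries differed from each other in a way that separated Foxj1 from Myb. Relative to the control mean, Foxj1 was lower by 0.75 and 0.68 on the log2 scale in ethanol replicates 1 and 2 but by only 0.07 in replicate 3. Myb was lower by 0.62 and 0.43 in replicates 1 and 2 and by 1.02 in replicate 3. Rfx2 resembled Foxj1, with differences of -0.48, -0.28 and 0.00, whereas Rfx3 was at 0.04, 0.18 and -0.28. The same library thus held the highest Foxj1 and the lowest Myb level of the ethanol group.

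Markers of several cell types also differed between the ethanol libraries. For 10 of 11 choroid plexus markers tested, ethanol replicate 3 was the highest of the ethanol libraries. Their median difference from the control mean was -3.62 and -3.57 in replicates 1 and 2 and -0.50 in replicate 3. Ttr, the transport protein that this epithelium makes in large amounts, averaged 758 ± 272 CPM with saline and 145 ± 243 CPM with ethanol (SD, n = 3 each). Kcnj13, Kcne2, Folr1 and Clic6 had log2 fold changes of -1.76, -1.35, -1.71 and -1.85, while Slc13a4 was at -0.42. The part of this epithelium in the Foxj1 value was not tested. Ethanol replicate 3 was also the highest of its group for 7 of 8 astrocyte markers and 3 of 3 oligodendrocyte markers. The axoneme genes had medians of -0.40, -0.32 and -0.39 in the 3 ethanol replicates. Ethanol replicate 3 was the lowest of its group for 31 of 64 of them and the highest for 18. Over all genes tested, that library was the lowest of its group for 38.1% and the highest for 41.2%.

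Of 6 ciliated ependyma markers 5 were matched and tested, and 3 of these had an unadjusted p below 0.05, all lower after ethanol. The share of all genes tested that were lower at this limit was 2.58%. The summed level of the 5 markers was 33.6 to 41.4 CPM in controls and 30.7 to 34.6 CPM after ethanol. The lowest value was in ethanol replicate 3, and no marker was at 0 in any library. That replicate was the lowest of its group for 3 of the 5, beside 38.1% of all genes tested. Tmem212, Dynlrb2 and Drc12 had log2 fold changes of -0.72, -0.88 and -0.43, while the other 2 markers were above 0, Rarres2 at 0.09 and Tekt4 at 0.22. The part of these cells in the Myb value was not tested.

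Control replicate 1 and ethanol replicate 3, the libraries of the 2 groups with the nearest choroid plexus marker levels (561 and 527 CPM), were also set side by side. Foxj1 was at 11.9 CPM in the control and 13.9 CPM in the ethanol library, a log2 difference of 0.23. Rfx2 and Rfx4 were higher by 0.32 and 0.27 in that ethanol library as well. Rfx3 differed by -0.07, and Rfx1 was at 32.3 and 32.9 CPM. Myb was at 2.77 CPM in the control and 1.64 CPM in the ethanol library, a log2 difference of -0.75 beside the -0.69 between the groups. These libraries also had the highest oligodendrocyte marker levels of the 6. This pair is 1 library against 1 and has no replicate check, and the cause of these differences was not tested. Control replicate 1 was also the lowest control library for Foxj1, Rfx2, Rfx3 and Myb.

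**Figure D5:**
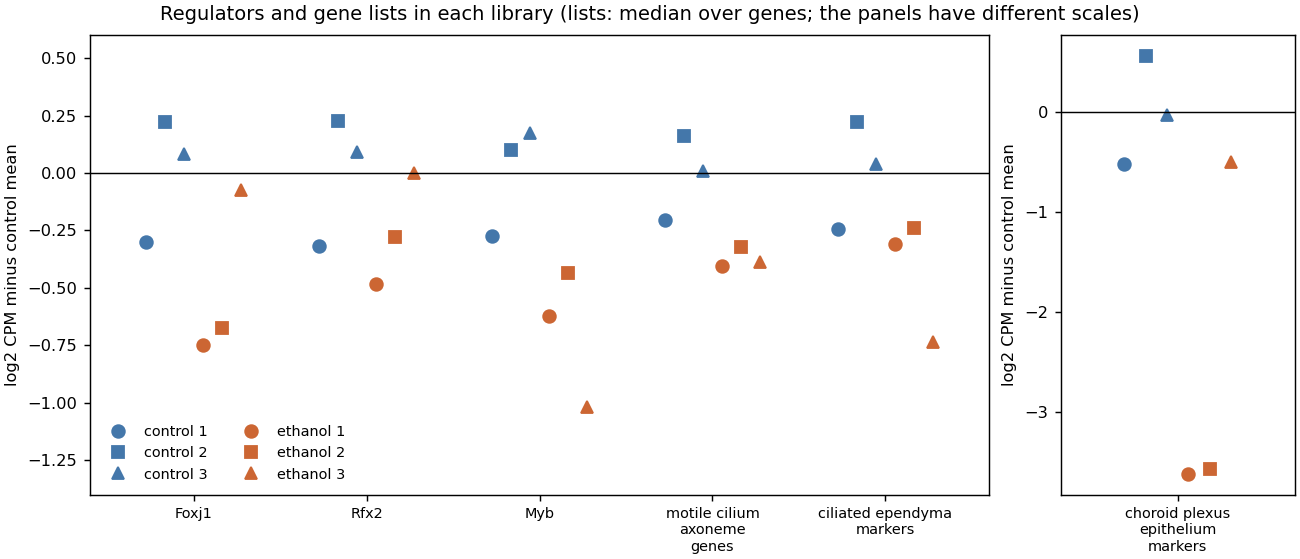
Difference of each library from the control mean (log2 CPM) for Foxj1, Rfx2 and Myb, and the median over genes of 3 marker or ciliary lists, with the choroid plexus markers in a panel of wider scale. Ethanol replicate 3 (triangle) is close to the controls for Foxj1 (-0.07) and lowest for Myb (-1.02) and the ependyma markers (-0.74).

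The genes most like Foxj1 over the 6 libraries were found by the root mean square (RMS) difference of centred log2 CPM among 14179 other genes of at least 1 CPM. They were Cfap300 (RMS difference 0.0718), Slc4a2 (0.0768), Lama2 (0.0845), Fam47e (0.0956) and Mak (0.0989). Slc4a2, an anion exchanger, was at 31.2, 40.9 and 35.6 CPM in controls and 20.5, 23.2 and 36.7 CPM after ethanol. The same measure was applied to Myb after its values had been seen. The nearest genes were Nme9 (0.0436), Ccdc162 (0.0825), Tmem212 (0.0952), Crocc2 (0.0979) and Ak7 (0.102). Tmem212, which is on the ependyma list, was at 3.98, 5.77 and 5.11 CPM in controls and 3.04, 3.40 and 2.59 CPM after ethanol. Ak7, an adenylate kinase on the axoneme list, was at 5.89, 9.29 and 8.20 CPM and at 4.92, 5.27 and 3.92 CPM. Since these genes were picked for their likeness to Foxj1 or Myb, the order of their libraries is fixed by that choice.

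Markers of other cell types were measured in the same fit. Median log2 fold changes were 0.06 over 8 astrocyte markers, 0.03 over 8 amygdala neuron markers, 0.14 over 3 oligodendrocyte markers, -0.04 over 5 tested microglia and T cell markers and -0.01 over 4 markers of dividing cells. Of these genes only Tbr1, a neuronal factor, had an unadjusted p below 0.05, beside 4.15% of all genes tested. Its log2 fold change was 0.55. The oligodendrocyte median was the least stable, at 0.45 when control replicate 1 was left out and -0.18 when ethanol replicate 3 was left out. The summed level of these 3 markers was highest in those libraries, 6594 and 7454 CPM, against 2748 to 4745 CPM in the other libraries. The summed level of the dividing cell markers was 8.10 to 9.91 CPM in controls and 8.63 to 9.14 CPM after ethanol. Myb is also expressed in proliferating progenitors, and the part of such cells in its value was not tested.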

How the data were processed

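The authors deposited raw counts, reads per gene and library that featureCounts 1.6.3 assigned to exons with its reverse-stranded setting (2) on the Rnor_6.0 NCBI annotation. Per the submitters' processing notes, reads were aligned with STAR 2.7.0f. Reads with several alignments or overlapping several genes were not counted. Symbols were taken from a RefSeq gene table (GRCr8) by NCBI gene ID for 29322 of 38445 genes, and older symbols through its synonyms.

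For the analysis edgeR 4.0.16 was run in R 4.3.3, with the filterByExpr rule (minimum 10 counts, 15 in total) and TMM scaling, with factors from 0.976 to 1.01. Groups were compared by its quasi-likelihood test, with p adjusted by Benjamini-Hochberg across the genes that passed the filter. A standard error is the log2 fold change divided by the square root of F. log2 CPM carries a prior count of 2. Alternatives used DESeq2 1.42.0, limma 3.58.1 (voom), edgeR's likelihood ratio test, other scalings and filters, a replicate block and each library left out. The fit was tested on simulated data. Named genes were the 8 regulators, the 3 most abundant genes and the 3 of smallest p of each list, and the 5 nearest to Foxj1. Gmnc, E2f5, Plk4, Sass6, Stil, Otx2, Tekt4 and the genes nearest to Myb were named after their values were seen. The members and lists were chosen with earlier results of these data known, and the motif searches with the sequences in view. Marker lists overlap: Tekt4 is on both the ependyma and the axoneme list.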

Additional observations from a re-analysis of the deposited data

How the results depend on the processing

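Genes past the adjusted threshold of 0.2 numbered 0 with edgeR's quasi-likelihood test, 74 with DESeq2 and 77 with edgeR's likelihood ratio test. With 1 library left out in turn it ran from 0 to 83, with 83 without ethanol replicate 3 and 4 without ethanol replicate 1. The cause was not tested. No regulator was called under any of the 14 alternatives. The log2 fold change of Myb stayed between -0.83 and -0.54 over them (unadjusted p 0.00166 to 0.0283, lowest adjusted p 0.297 with DESeq2), and that of Foxj1 between -0.73 and -0.36 (unadjusted p 0.00248 to 0.151, lowest adjusted p 0.286). Rfx3 ran from -0.12 to 0.10 and Rfx4 from -0.17 to 0.080 with 1 library left out, and turned positive in 2 and 3 of the alternatives. Rfx1 (-0.17 to -0.028) and Rfx2 (-0.41 to -0.14) kept a negative sign in all 14, with the smallest size of each without control replicate 2. With the replicate block 0 genes were called, Foxj1 had -0.50 (edgeR's adjusted p 0.74) and Myb -0.70 (0.70). Deviations of same-numbered libraries correlated across 14241 genes by 0.0264, 0.388 and 0.211. Control 1 correlated with ethanol 2 and 3 by -0.414 and 0.305, control 2 with ethanol 1 and 3 by 0.184 and -0.427. Control 3 correlated with ethanol 1 and 2 by -0.264 and -0.0421. Libraries of the same number held RNA of different rats, so the numbers were not taken as pairs in the main fit. The axoneme median stayed between -0.46 and -0.25. The choroid plexus median was -3.81 without ethanol replicate 3 against -1.80 with all libraries. With 3 libraries per group, differences the size of those of Rfx1, Rfx2, Rfx3 and Rfx4 lie within the spread between libraries. For Mcidas and Ccno, depth sets the limit.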

Other observations

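Among motile axoneme genes with a promoter window, the 20 tested genes with the X-box half-site differed between the groups by a median of -0.26 on the log2 scale, while for the 32 tested genes without it the median was -0.44. Over all genes with a window these medians were 0.00 for 1685 tested genes and 0.01 for 11565. Other lists did not share 1 order. Ciliated ependyma markers had -0.10 (2 genes with it) and -0.72 (3 without). Other multiciliogenesis genes went the other way, at -0.18 (4 with) and -0.03 (8 without). The regulators had -0.12 (3 with) and -0.01 (1 without). Genes for intraflagellar transport and the BBSome had -0.06 (10 with) and -0.04 (12 without). None of these differences was tested.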
